A study of Homo sapiens with 12 samples.

Results

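The ERBB receptors EGFR, ERBB2, ERBB3 and ERBB4 are 4 of the 20503 genes named on the arrays and were read by 9 of the 50599 non-control probes. These are all probes whose RefSeq transcript belongs to a member of the family. The transcript of a probe is the one its annotation names. Probe sequences were not available, so whether a probe also reads other transcripts of its gene is not known. EGFR had 3 probes (A_33_P3351955 for NM_201282, A_23_P215790 for NM_005228 and A_33_P3351944 for NM_201283), ERBB2 had 1 (A_23_P89249, NM_001005862), ERBB3 had 3 (A_33_P3280471 and A_23_P349416 for NM_001982, A_33_P3211569 for NM_001005915) and ERBB4 had 2 (A_32_P183765 and A_33_P3211558, both for NM_005235). The samples were HA22T and PLC5, both human hepatocellular carcinoma (HCC) cell lines, transfected with a control siRNA (siControl) or a pool of siRNAs against GALNT1 (siGALNT1). Each siRNA was given at 10 nM with Lipofectamine RNAiMAX for 48 h, and each of the 4 groups was measured on 3 one-color arrays, so no untransfected cells are among the 12 arrays. GALNT1 encodes an enzyme that starts O-linked glycosylation of proteins. The comparisons asked whether loss of GALNT1 changed the mRNA of these receptors, and whether the lines differed in it.

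ERBB receptors are tyrosine kinases of the cell surface. Ligand binding lets them pair with themselves or with each other, after which their tails are phosphorylated and recruit adaptors to the RAS-MAPK and PI3K-AKT pathways. EGFR binds EGF, TGFα, amphiregulin and related ligands. ERBB2 has no known ligand of its own and is a favored partner of the other receptors, ERBB3 has weak kinase activity and binds neuregulins, and ERBB4 binds neuregulins and some of the EGF-like ligands. In hepatocytes EGFR takes part in regeneration of the liver.

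RefSeq (GRCh38.p14) places EGFR at chr7:55019017-55211628, ERBB2 at chr17:39688094-39728658, ERBB3 at chr12:56080108-56103505 and ERBB4 at chr2:211375717-212538802. The 250 bases before the start of EGFR (chr7:55018767-55019016, plus strand) and of ERBB4 (chr2:212538803-212539052, minus strand) are shown because ERBB4 mRNA passed the test between the lines and EGFR mRNA did not. ERBB3 mRNA passed too, but its promoter sequence was not in the reference used. The part of these sequences in the line differences was not tested. Capitals mark the GC box GGGCGG on either strand.
EGFR: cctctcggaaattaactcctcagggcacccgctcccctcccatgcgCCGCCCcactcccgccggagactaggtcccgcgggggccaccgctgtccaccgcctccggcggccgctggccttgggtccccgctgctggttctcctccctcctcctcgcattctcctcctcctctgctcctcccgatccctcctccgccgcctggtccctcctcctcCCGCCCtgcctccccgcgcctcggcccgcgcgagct
ERBB4: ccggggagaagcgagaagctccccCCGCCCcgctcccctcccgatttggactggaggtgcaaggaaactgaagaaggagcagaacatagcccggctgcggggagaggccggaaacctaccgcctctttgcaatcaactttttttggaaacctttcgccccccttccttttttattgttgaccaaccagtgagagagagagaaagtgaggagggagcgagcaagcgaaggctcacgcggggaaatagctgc
The EGFR stretch held 2 GC boxes and was 73.6% G and C, and the ERBB4 stretch held 1 and was 57.2% G and C. In the same windows of all 35116 RefSeq promoters, 42.6% held at least 1 GC box, and the median share of G and C was 58.0%. Neither stretch held a TATA box (TATAAA, either strand, found in 10.7% of the windows) or the E-box CACGTG (6.34%). The ERBB2 window held no GC box, at 65.6% G and C. It overlaps PGAP3 and is not printed. The EGFR window overlaps the non-coding RNA gene LOC105375284.

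All values are log2 of the background-subtracted signal relative to the 75th percentile of the same array, so 0 is the level of a spot at that percentile, and a difference is read as a log2 fold change. Between 36679 and 48873 of the 58717 spots of an array were well above background, no spot was saturated, and the lowest correlation between arrays of a group was 0.9685. One slide carried the 6 HA22T arrays together with replicate 1 of both PLC5 groups, and the other carried replicates 2 and 3 of PLC5. The targeted gene GALNT1 measured 1.32, 0.75 and 0.85 in HA22T with siControl and -3.15, -3.68 and -5.55 with siGALNT1, the last not well above background. In PLC5 it measured 0.87, 0.37 and 0.61 with siControl and -1.93, -3.47 and -3.92 with siGALNT1. It was lower with siGALNT1 on every array, by -5.10 in HA22T (adjusted p = 0.0708, limma) and by -3.72 in PLC5 (adjusted p = 1, limma), neither past the threshold of 0.05. GAPDH, a glycolytic enzyme used as a reference, differed by -0.09 and 0.17, and ACTB, the cytoplasmic actin, by -0.32 and 0.14. Of the 12 hepatocyte and liver cancer genes listed as markers, 7 were well above background on all HA22T siControl arrays and 12 on all PLC5 siControl arrays, and keratins KRT8 and KRT18 were among those present in both lines. The labels do not say whether the 3 arrays of a group came from separate cultures, so the p-values measure the spread between these arrays, which may be technical.

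The EGFR lead probe was well above background in both lines, and with siGALNT1 no EGFR probe passed the threshold. The lead probe of a gene is its brightest one with a value in every group, and for EGFR this was A_33_P3351955. Its annotated transcript, NM_201282, encodes a truncated receptor without the kinase domain. The full-length receptor is encoded by NM_005228, whose annotated probe is described further on. In HA22T it measured 1.28, 1.14 and 1.23 with siControl and 1.79, 1.27 and 1.26 with siGALNT1. Replicate 1 with siGALNT1 stood highest, and the groups overlapped. In PLC5 it measured 0.82, 0.88 and 0.80 with siControl and 1.14, 1.18 and 0.96 with siGALNT1. Here all 3 siGALNT1 arrays lay above all siControl arrays, a separation in either direction that 4.11% of the PLC5 probes with a value on every array showed.

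The EGFR difference was 0.23 in HA22T (1.17-fold, SE 0.23, 95% CI -0.27 to 0.72, limma adjusted p = 1, exact permutation p = 0.3) and 0.26 in PLC5 (SE 0.23, 95% CI -0.24 to 0.75, limma adjusted p = 1, exact permutation p = 0.1). With 3 arrays against 3, 0.1 is the smallest two-sided p that the exact test can give. Without replicate 1 of siGALNT1 the difference in HA22T was 0.05. The intervals span 0.83 to 1.65 times the siControl level in HA22T and 0.848 to 1.68 times in PLC5. The difference between the lines in the siRNA effect was -0.03 (SE 0.32, limma adjusted p = 0.996).

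**Figure D1:**
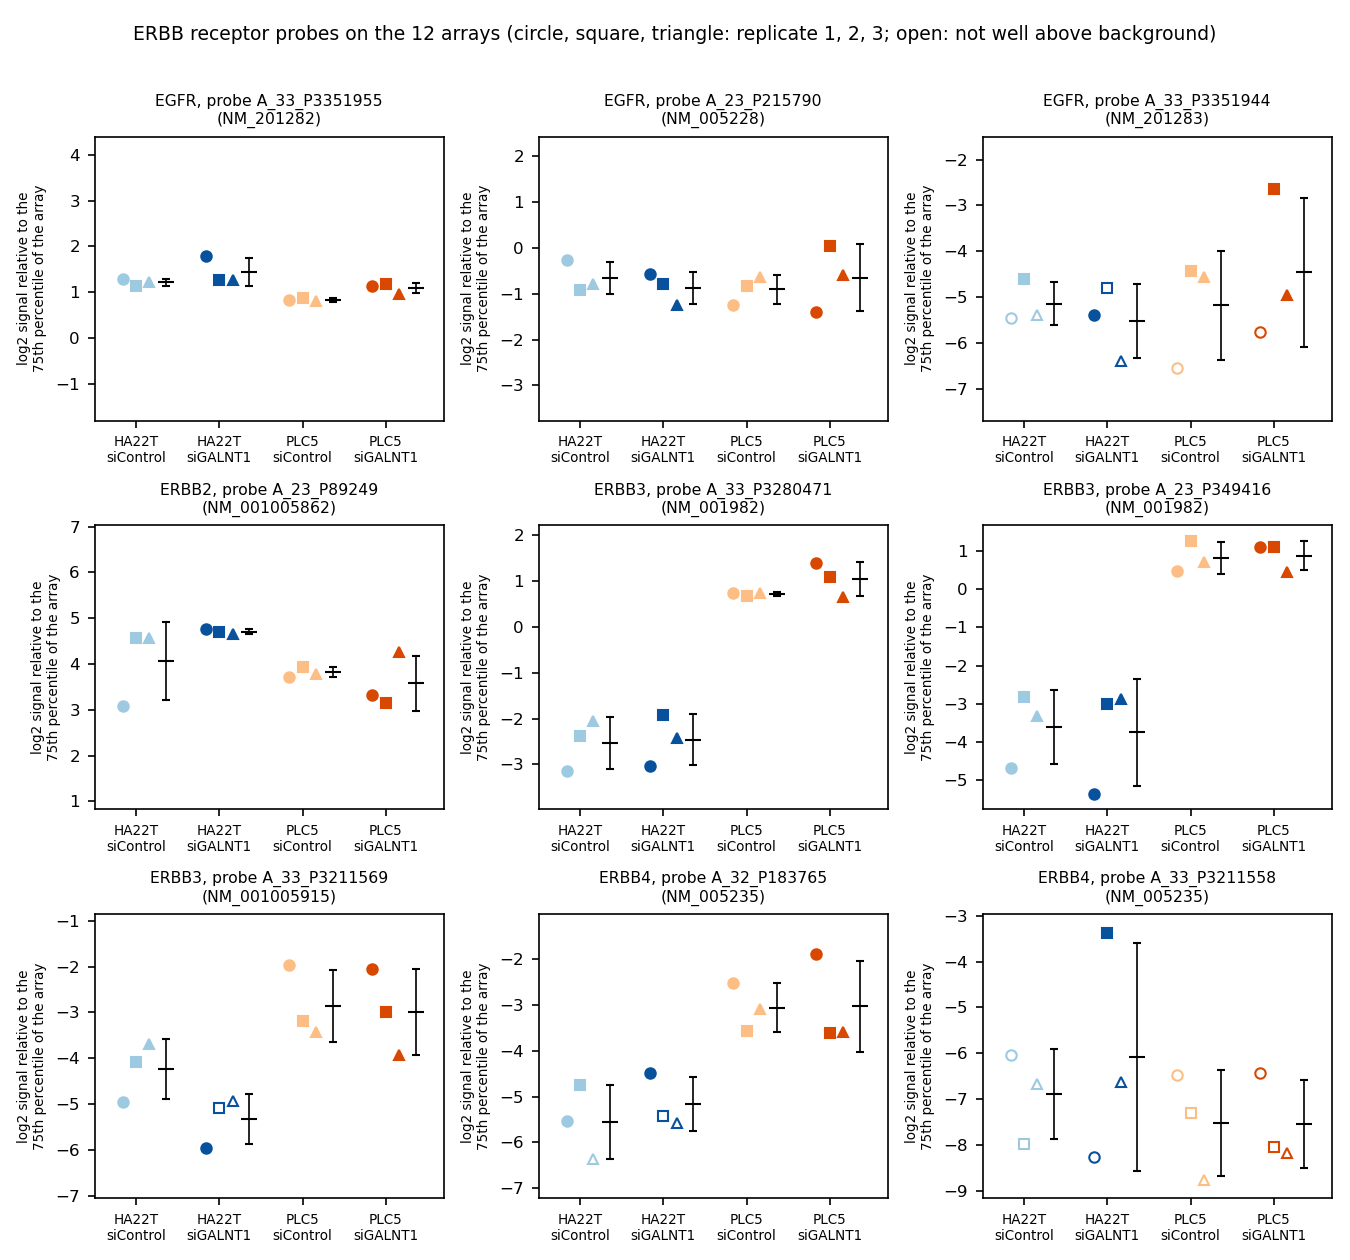
Log2 signal relative to the 75th percentile of the array (vertical axis) for the 9 ERBB receptor probes in the 4 groups, with 1 point per array and the group mean ± SD beside it (n = 3). ERBB3 probes A_33_P3280471 and A_23_P349416 and ERBB4 probe A_32_P183765 separate the lines, and replicate 1 of HA22T with siControl stands low for ERBB2, at 3.08.

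The other EGFR probes were not called either and spread more. A_23_P215790, for the full-length receptor transcript NM_005228, measured -0.26, -0.91 and -0.79 in HA22T with siControl and -0.58, -0.79 and -1.25 with siGALNT1. The groups overlapped, and the difference was -0.22 (SE 0.37, 95% CI -1.04 to 0.60, limma adjusted p = 1). In PLC5 it measured -1.25, -0.84 and -0.63 with siControl and -1.39, 0.05 and -0.60 with siGALNT1, a difference of 0.26 (SE 0.37, 95% CI -0.56 to 1.08, limma adjusted p = 1). Within PLC5 this probe was lower by -0.81 on the slide of replicate 1 than on the other slide, a larger difference than that with siGALNT1. A_33_P3351944, for the short transcript NM_201283, was well above background on 1 array of each HA22T group and 2 of each PLC5 group. Its values ran from -6.55 to -2.65, and it was not counted in HA22T. In PLC5 its siGALNT1 difference was 0.72 (SE 0.79, limma adjusted p = 1).

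Whether EGFR probes changed unequally was tested on the difference between 2 probes of the same array. A_23_P215790 minus the lead probe was lower with siGALNT1 in HA22T by -0.45, with no overlap between the groups (exact permutation p = 0.1, the smallest possible). With normexp background correction the same change was -0.24 with an exact p of 0.3. In PLC5 the change was 0.00 (exact permutation p = 1).

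ERBB2 had the largest siGALNT1 difference of the 4 lead probes, in HA22T, and its size rested on 1 array. Its single probe is printed 10 times on each array, of which 5 to 10 spots were used, and the SD between spots of 1 array was 0.0664 to 0.344. In HA22T it measured 3.08, 4.56 and 4.56 with siControl and 4.77, 4.70 and 4.65 with siGALNT1. Replicate 1 of siControl lay far below the others of its group, the siGALNT1 arrays lay close together, and the groups did not overlap, as for 8.83% of HA22T probes with a value on every array. That low value rested on 5 spots, which ran from 2.67 to 3.38. It was -1.48 from the mean of replicates 2 and 3, and 1.67% of the 34375 probes counted in HA22T with all 3 values were at least as far below on that array. In PLC5 ERBB2 measured 3.72, 3.94 and 3.79 with siControl and 3.33, 3.14 and 4.26 with siGALNT1. The PLC5 groups overlapped, with replicate 3 of siGALNT1 the highest.

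The ERBB2 difference was 0.64 in HA22T (1.56-fold, SE 0.41, 95% CI -0.26 to 1.55, limma adjusted p = 1, exact permutation p = 0.1) and -0.24 in PLC5 (SE 0.41, 95% CI -1.14 to 0.67, limma adjusted p = 1, exact permutation p = 0.5). Without replicate 1 of siControl the HA22T difference was 0.15. The siRNA effect was 0.88 higher in HA22T than in PLC5, a difference that did not pass the test (SE 0.58, 95% CI -0.40 to 2.16, limma adjusted p = 0.988). It was 0.39 without replicate 1 of HA22T with siControl and 1.22 without replicate 3 of PLC5 with siGALNT1. Without single PLC5 siGALNT1 arrays the PLC5 difference ran from -0.58 (without replicate 3) to -0.0216 (without replicate 2).

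ERBB3 was low in HA22T and did not pass the test with siGALNT1 in either line. The lead probe A_33_P3280471 measured -3.16, -2.38 and -2.04 in HA22T with siControl and -3.04, -1.93 and -2.43 with siGALNT1. In PLC5 it measured 0.75, 0.67 and 0.74 with siControl and 1.39, 1.09 and 0.66 with siGALNT1. The siRNA groups overlapped in both lines. The differences were 0.06 in HA22T (SE 0.36, 95% CI -0.73 to 0.85) and 0.33 in PLC5 (SE 0.36, 95% CI -0.46 to 1.12), both with a limma adjusted p of 1.

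The second probe of NM_001982, A_23_P349416, differed by -0.14 in HA22T and 0.06 in PLC5 (SE 0.65 in each, limma adjusted p = 1). A_33_P3211569, for NM_001005915, a transcript that encodes a short form of ERBB3, measured -4.95, -4.09 and -3.68 in HA22T with siControl and -5.95, -5.10 and -4.94 with siGALNT1. The groups overlapped only between replicate 3 of siGALNT1 and replicate 1 of siControl, and 1 of the siGALNT1 values was well above background. The difference was -1.09 (SE 0.55, 95% CI -2.29 to 0.11, unadjusted p = 0.0707 and adjusted p = 1 by limma, exact permutation p = 0.2). Relative to the lead probe this probe was lower with siGALNT1 by -1.15 with no overlap (exact permutation p = 0.1), and by -0.63 with normexp background correction. Between same-numbered HA22T arrays, which pair by the data and not by the labels, the probe was lower in each pair, by -1.002, -1.01 and -1.26. With the replicate block the difference had an unadjusted p of 0.00182 and an adjusted p of 0.821 by limma, so it was not called in that fit either. In PLC5 the probe differed by -0.14 (SE 0.55, limma adjusted p = 1).

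ERBB4 was dim in both lines. The lead probe A_32_P183765 measured -5.54, -4.75 and -6.36 in HA22T with siControl, 2 of them well above background, and -4.48, -5.42 and -5.58 with siGALNT1, of which only the first was. In PLC5 it measured -2.51, -3.57 and -3.10 with siControl and -1.88, -3.61 and -3.60 with siGALNT1, all well above background. The siRNA groups overlapped in both lines. The differences were 0.39 in HA22T (SE 0.56, 95% CI -0.83 to 1.61) and 0.03 in PLC5 (SE 0.56, 95% CI -1.19 to 1.25), with a limma adjusted p of 1 for each. The difference between the lines in the siRNA effect was -0.27 for ERBB3 (SE 0.51) and 0.36 for ERBB4 (SE 0.79), with a limma adjusted p of 0.988 for each. The other ERBB4 probe, A_33_P3211558, was well above background on 1 of the 12 arrays, ran from -8.77 to -3.37 and was not counted in any comparison.

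No receptor probe was called with siGALNT1 in either line or in the difference between lines. Over all probes, 0.00275% of 36327 were called in HA22T and 0% of 38070 in PLC5, with 2.99% and 1.33% at an unadjusted limma p under 0.05. The difference between lines gave calls for 0% of 39100 probes and an unadjusted p under 0.05 for 2.43%. None of the 4 lead probes had an unadjusted limma p under 0.05 in these comparisons, while the methods' t-test gave the EGFR lead probe in PLC5 an unadjusted p of 0.024 (adjusted p = 1). The methods' t-test called 0 receptor probes in either line, both after Benjamini-Hochberg adjustment and at the study's threshold of a p under 0.05 with a fold of at least 1.5. Of all probes, 753 of 36327 in HA22T and 325 of 38070 in PLC5 passed the study's threshold in this test, and 1 and 0 passed after adjustment. The siRNA groups did not overlap for 1 receptor probe in each line, ERBB2 in HA22T and EGFR A_33_P3351955 in PLC5. Among all counted probes with a value on every array, 8.83% of 32440 in HA22T and 4.11% of 35405 in PLC5 did not overlap. The median difference of the 4 lead probes was 0.31 in HA22T and 0.14 in PLC5, beside -0.10 and 0.04 over the brightest probes of all genes counted.

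Of the 4 lead probes, ERBB3 had the largest difference between the lines. On the lead probe, all 6 HA22T arrays (-3.16 to -1.93, median -2.40) lay below all 6 PLC5 arrays (0.66 to 1.39, median 0.74). Over all counted probes with a value on every array, 14% separated the lines in this direction and 26.5% in either direction. With siControl, ERBB3 was lower in HA22T by -3.24 (9.48-fold lower, SE 0.36, limma adjusted p = 6.26e-05), and with siGALNT1 by -3.51 (11.4-fold lower, SE 0.36, limma adjusted p = 3.76e-05). Over both siRNAs the mean difference was -3.38, with a p of 0.005 in a two-sided exact permutation test within siRNA groups, the smallest that its 400 arrangements can give. On the slide that held both lines it was -3.57. In bulk RNA, fewer cells that make a transcript and less of it per cell cannot be told apart.

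The second NM_001982 probe, A_23_P349416, also separated all arrays, with HA22T between -5.37 and -2.82 and PLC5 between 0.44 and 1.27. It was lower by -4.43 with siControl (21.6-fold, SE 0.65, limma adjusted p = 0.000474) and by -4.63 with siGALNT1 (24.8-fold, SE 0.65, limma adjusted p = 0.000374). The NM_001005915 probe A_33_P3211569 differed by -1.38 with siControl (SE 0.55, limma adjusted p = 0.0977), which did not pass, and was lower by -2.33 with siGALNT1 (SE 0.55, limma adjusted p = 0.00991), where 1 of the 3 HA22T arrays read it well above background. With normexp background correction the siGALNT1 difference was -1.27, and under the methods' t-test its call was lost (adjusted p = 0.103). With slide as a block the siControl difference was -2.29 and passed (limma adjusted p = 0.00845), and within PLC5 the probe was higher by 1.37 on the slide of replicate 1. Its arrays overlapped between lines, at -5.95 to -3.68 in HA22T and -3.93 to -1.97 in PLC5.

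The size of the line difference thus varied among the 3 ERBB3 probes. Relative to the lead probe, A_23_P349416 was lower in HA22T by a further -1.15 (two-sided exact permutation p = 0.005) and A_33_P3211569 was higher by 1.52 (p = 0.005, same exact test). On the slide with both lines the differences were -4.47 for A_23_P349416, -2.77 for A_33_P3211569 and -3.57 for the lead probe, so the gap of A_33_P3211569 to the lead probe was smaller there than over all arrays. With normexp background correction the values relative to the lead probe over all arrays were -0.62 (exact p = 0.04) and 2.08 (exact p = 0.005). Of the 6 HA22T arrays, 4 read A_33_P3211569 well above background.

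ERBB4 was also lower in HA22T. The 6 HA22T arrays of A_32_P183765 ran from -6.36 to -4.48 (median -5.48) and the 6 PLC5 arrays from -3.61 to -1.88 (median -3.33), with no overlap. The difference was -2.49 with siControl (5.63-fold lower, SE 0.56, limma adjusted p = 0.00727) and -2.13 with siGALNT1 (4.38-fold lower, SE 0.56, limma adjusted p = 0.0174). Over both siRNAs it was -2.31 (two-sided exact permutation p = 0.005). With normexp background correction the differences were -1.24 and -1.09, still past the threshold (limma adjusted p = 0.0169 and 0.034). Both calls were lost under the methods' t-test (adjusted p = 0.0602 and 0.138) and with the mean over the probes of ERBB4 (-0.94 and -0.33). The call with siGALNT1 was also lost without replicate 2 of HA22T with siGALNT1 (-2.002), without its replicate 3 (-1.92), or without replicate 1 of PLC5 with siGALNT1 (-1.56). Within PLC5 the probe was higher by 1.27 on the slide of replicate 1, and on that slide alone the lines differed by -3.16.

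**Figure D2:**
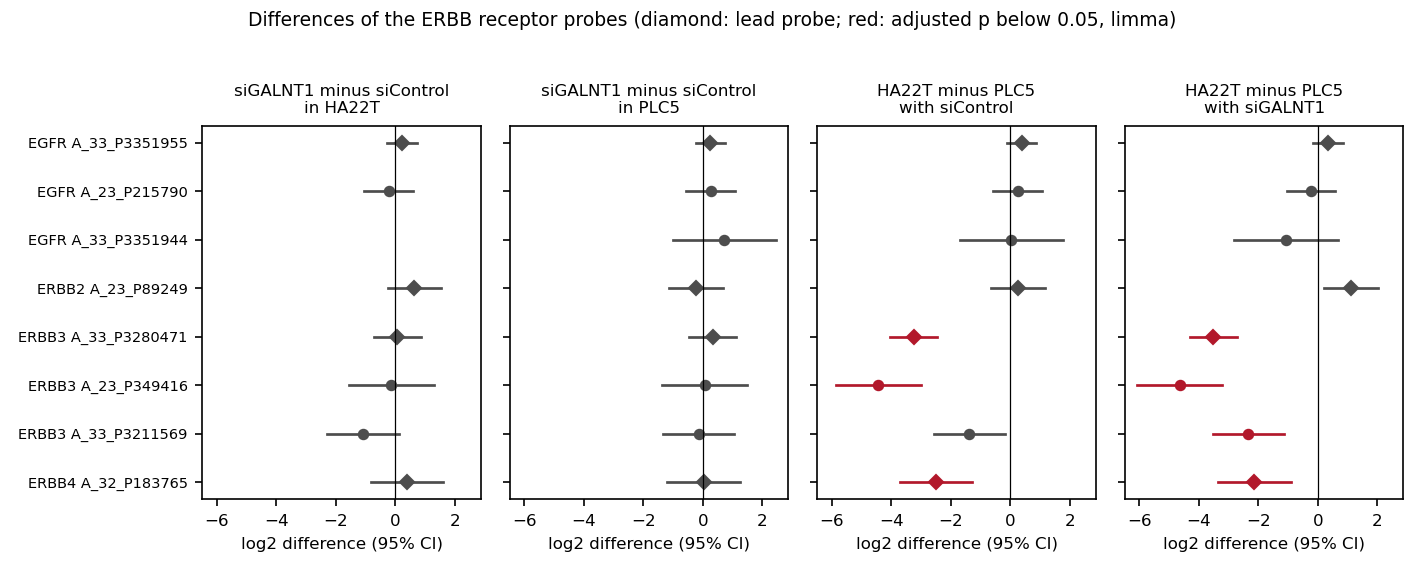
Log2 differences with 95% confidence intervals (horizontal axis) for the receptor probes counted in each of the 4 comparisons, from the limma fit over all probes, with diamonds for lead probes. Red marks an adjusted p under 0.05, which 3 probes reached between the lines with siControl, 4 with siGALNT1, and none with siGALNT1 against siControl.

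EGFR and ERBB2 did not pass the adjusted test between the lines. EGFR A_33_P3351955 was higher in HA22T by 0.38 with siControl (SE 0.23, 95% CI -0.11 to 0.88, limma adjusted p = 0.27) and by 0.35 with siGALNT1 (1.28-fold, SE 0.23, 95% CI -0.14 to 0.85, limma adjusted p = 0.291). The lines did not overlap under either siRNA, where 42.6% of probes with a value on every array did not overlap with siControl and 39.7% with siGALNT1. Over both siRNAs the difference was 0.37 (two-sided exact permutation p = 0.005, unadjusted), with overlap between the 6 and 6 arrays. It was 0.35 on the slide with both lines. Without replicate 1 of HA22T with siGALNT1 the siGALNT1 difference was 0.18. For the full-length transcript probe A_23_P215790 the difference was 0.01 over both siRNAs (exact permutation p = 0.965) and 0.56 on the slide with both lines, so its size depended on the slide.

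ERBB2 was 0.25 higher in HA22T with siControl (SE 0.41, limma adjusted p = 0.721) and 1.13 higher with siGALNT1 (2.19-fold, SE 0.41, 95% CI 0.23 to 2.04, limma adjusted p = 0.0707, no overlap). Over both siRNAs the difference was 0.69 (two-sided exact permutation p = 0.085), and 0.86 on the slide with both lines. The siControl difference was 0.74 without replicate 1 of HA22T with siControl, 0.0037 without replicate 2 and 0.0012 without replicate 3. The siGALNT1 difference of ERBB2 passed the threshold without replicate 1 of HA22T with siControl, at the same 1.13 (limma adjusted p = 0.0212). It also passed without replicate 3 of PLC5 with siGALNT1, at 1.47 (limma adjusted p = 0.0293).

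By group mean, EGFR A_33_P3351955 ran from HA22T with siGALNT1 (1.44 ± 0.304, SD, n = 3) through HA22T with siControl (1.22 ± 0.0722) and PLC5 with siGALNT1 (1.09 ± 0.119) to PLC5 with siControl (0.83 ± 0.0403). Neighbors in this order overlapped, except the 2 PLC5 groups. ERBB2 ran from HA22T with siGALNT1 (4.71 ± 0.0614) through HA22T with siControl (4.07 ± 0.856) and PLC5 with siControl (3.82 ± 0.109) to PLC5 with siGALNT1 (3.58 ± 0.602), and neighbors below the highest group overlapped. ERBB3 and ERBB4 shared 1 order, PLC5 with siGALNT1, PLC5 with siControl, HA22T with siGALNT1 and HA22T with siControl. For ERBB3 the means were 1.04 ± 0.367, 0.72 ± 0.0458, -2.47 ± 0.557 and -2.53 ± 0.570, and for ERBB4 they were -3.03 ± 0.996, -3.06 ± 0.530, -5.16 ± 0.596 and -5.55 ± 0.809. The groups of 1 line overlapped, and the groups of different lines did not.

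Counted as probes, 3 of 8 receptor probes were called between the lines with siControl and 4 of 8 with siGALNT1, all lower in HA22T. Over all counted probes 22.5% were called with siControl (11.5% lower in HA22T) and 22.9% with siGALNT1 (12.9% lower), so line differences were common across the array. By lead probe, ERBB3 and ERBB4 were the 2 of 4 receptors called, both lower in HA22T under either siRNA, where 12.8% of the genes counted were called lower with siControl and 14.8% with siGALNT1. Another 14.2% and 11.8% of genes were called higher, and no receptor was. By the study's threshold with the methods' t-test, 3 receptor probes passed with siControl and 5 with siGALNT1, and after Benjamini-Hochberg adjustment 3 and 1 did. Over all probes, 11593 of 39678 passed the study's threshold with siControl and 10501 of 39141 with siGALNT1. After adjustment 6576 and 3936 did. The 3 probes of ERBB3 share a gene and the receptor probes share arrays, so they are not independent measurements.

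Hepatocyte markers moved with the line difference of ERBB3 and ERBB4. Of the 12 listed, 8 were lower in HA22T with siControl (ALB, APOA1, APOB, FGB, HNF4A, SERPINA1, TF and TTR), with a median difference of -3.60 beside 0.09 over all genes counted. Their mean log2 value per array ran from -1.52 to -1.43 in HA22T with siControl and from 2.06 to 2.73 in PLC5 with siControl, and from -1.71 to -1.35 and 1.94 to 2.64 with siGALNT1. With siGALNT1, TTR was not well above background on any HA22T array. APOB, a lipoprotein component, differed by -9.55, TF, the iron carrier transferrin, by -9.62, and FGB, a fibrinogen chain, by -5.81 (limma adjusted p = 1.95e-08, 2.52e-07 and 2.70e-07). Of the 3 HA22T siControl arrays, 2 read APOB well above background, 1 read TF and 2 read FGB, so the sizes rest on values near background. Of 4 counted mesenchymal markers, VIM was higher in HA22T by 5.54 and ZEB1 by 2.01, while FN1 was lower by -3.60. The leukocyte and other epithelial markers gave PECAM1 lower in HA22T by -5.41 and KRT14 and CD14 higher by 3.79 and 3.86, with PTPRC and CD3E well above background on all 12 arrays and KRT5 on none. The part of these markers in the receptor differences was not tested.

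Ligands of the receptors were compared in the same fit, 10 of 11 being counted between the lines. With siControl none was called higher in HA22T and 2 lower. These counts and those of the lists that follow stand beside 14.2% of all genes called higher and 12.8% lower with siControl, and 11.8% and 14.8% with siGALNT1. AREG (amphiregulin, an EGFR ligand) measured -2.03, -1.86 and -2.27 in HA22T with siControl and 2.96, 3.29 and 3.46 in PLC5 with siControl. It was 39.0-fold lower in HA22T (-5.29, SE 0.33, limma adjusted p = 8.89e-07). EREG (epiregulin, a ligand of EGFR and ERBB4) was 7.72-fold lower (-2.95, SE 0.38, limma adjusted p = 0.000736), from 2 HA22T arrays, as the spot of replicate 2 was left out. The median over the 10 ligands was -0.17, beside 0.09 over all genes. With siGALNT1, AREG and EREG were again called lower, by -5.63 and -2.18 (the latter from 2 arrays a group). NRG1 and NRG2 encode neuregulins, which bind ERBB3 and ERBB4, and are named here after their values were seen. With siGALNT1 NRG2 was lower by -2.33 and NRG1 higher by 1.85 (limma adjusted p = 0.0109 and 0.0117).

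In HA22T, 8 ligands were counted for the effect of siGALNT1, and none was called. Their median difference was 0.70 beside -0.10 over all genes counted, with values from -1.26 to 0.89. NRG4 (0.89, limma unadjusted p = 0.0457) and NRG2 (-1.26, limma unadjusted p = 0.0442), named after their values were seen, were the 2 with an unadjusted p under 0.05, and both had an adjusted p of 1. In PLC5 the median over 10 ligands was -0.07 and none had an unadjusted p under 0.05.

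Among genes that act on the receptors or downstream of them, calls between the lines with siControl ran in both directions, and within a line siGALNT1 gave none in any list. Of 4 genes of sheddases and their partners, ADAM17, which frees ligands from the membrane, was higher in HA22T by 1.09. Its partner RHBDF2 was lower by -1.79 (limma adjusted p = 0.00898 and 0.00097). Of 15 adaptors and proximal effectors, 2 were higher and 1 lower with siControl, and 2 and 2 with siGALNT1. NCK1, an adaptor, was higher by 2.21, PIK3CA, the catalytic subunit of PI3K, by 1.94, and the kinase SRC was lower by -0.78 (limma adjusted p = 8.26e-05, 0.0074 and 0.0211).

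Of 16 inhibitors and phosphatases, 3 were higher and 2 lower with siControl, and 2 and 4 with siGALNT1. PTPN6, a phosphatase of receptor signaling, was well above background on no HA22T array and on all 6 PLC5 arrays, where it measured -0.76 to -0.19, and was at least 34.2-fold lower in HA22T with siControl (limma adjusted p = 2.83e-07). This bound sets the PLC5 mean against the dimmest signal well above background on each HA22T array. CBLB, a ubiquitin ligase of receptors, was higher by 2.37 (limma adjusted p = 0.00118), and the ubiquitin ligase NEDD4 lower by -0.95 (limma adjusted p = 0.0131). The others called were the phosphatase PTPN2 (0.92) and LRIG1, a membrane protein that lowers receptor levels (0.88), named after their values were seen.

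Of 21 endocytosis and sorting genes, 4 were higher in HA22T and none lower with siControl, and 3 were higher and 2 lower with siGALNT1. The siControl counts stand beside 14.2% and 12.8% of all genes, with a median of 0.09 that equals that of all genes at 2 decimals. CAV1, the coat protein of caveolae, was higher by 5.03, RAB7A, of late endosomes, by 1.77, and AP2M1, a subunit of the clathrin adaptor, by 1.74 (limma adjusted p = 6.43e-07, 0.00121 and 0.00361). EEA1, an early endosome protein named after its value was seen, was higher by 1.21. Of 11 chaperones and partners, 3 were higher with siControl and 4 with siGALNT1, and none was lower. MUC1, a mucin that binds ERBB proteins, was higher by 2.15, ERBIN, a scaffold that binds ERBB2, by 1.62, and HSP90AA1, a chaperone of ERBB2, by 1.76 (limma adjusted p = 6.54e-05, 0.000422 and 0.0101).

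**Figure D3:**
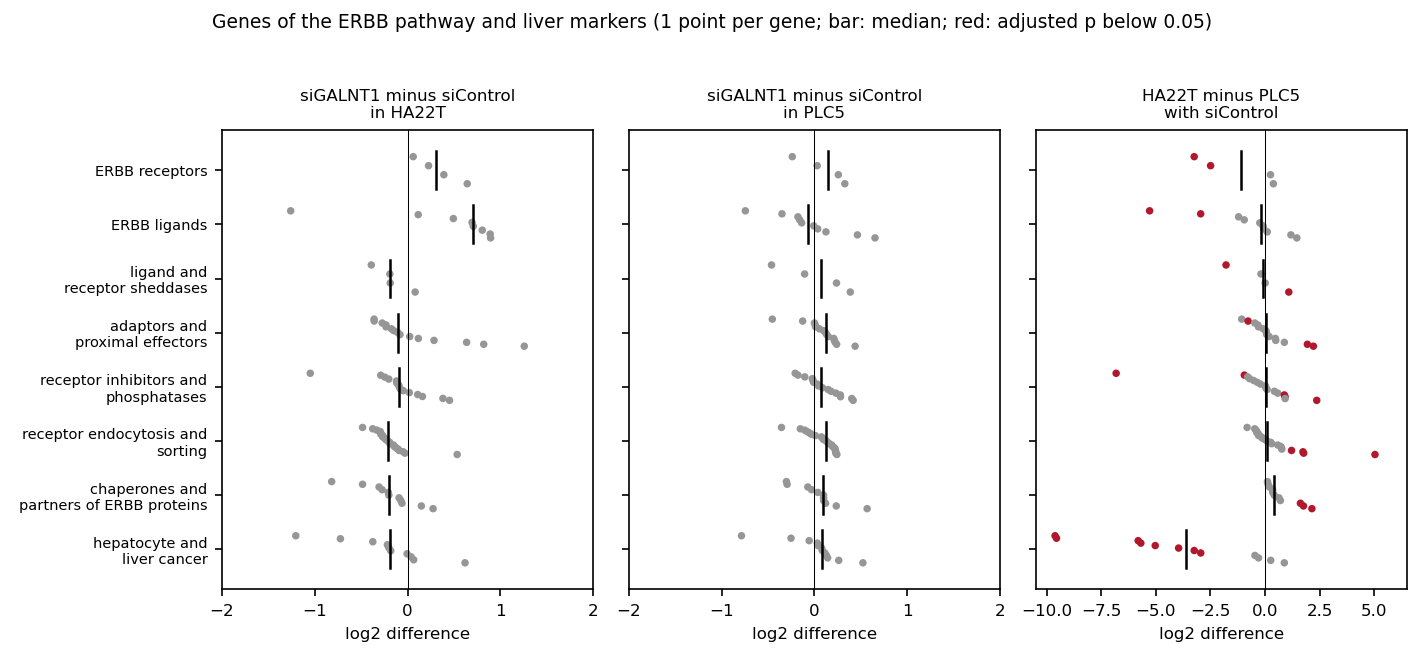
Log2 differences (horizontal axis) of the brightest probe of each counted gene in the receptor, pathway and hepatocyte lists, 1 point per gene, for siGALNT1 in each line and for HA22T minus PLC5 with siControl. Red points have an adjusted p under 0.05 and bars are list medians; in the siGALNT1 panels no point is red, and between the lines the red points to the left of 0 include 8 hepatocyte markers and the receptors ERBB3 and ERBB4.

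Genes whose pattern over the 12 arrays was most like that of ERBB2 or ERBB3 were sought among 11848 genes with a brightest probe well above background on every array. The 12 points share lines, slides and scaling, and the correlations are a description. Genes chosen this way share the receptor's pattern by the choice itself. Their values on single arrays, and correlations after group means are removed, are therefore no separate support for that pattern. ERBB3 ran with CMTM8 (r = 0.995), SSUH2 (r = 0.994) and the epithelial transcription factor ELF3 (r = 0.994), all low on the 6 HA22T arrays. ELF3 averaged -3.16 in each HA22T group and 3.14 in PLC5 with siControl. ERBB2 ran with DGKA (r = 0.972), S1PR4 (r = 0.963) and MTMR14 (r = 0.959). These 3 were also low on replicate 1 of HA22T with siControl, where DGKA measured 2.47 against 4.17 at the highest of its group, S1PR4 4.61 against 5.93 and MTMR14 3.79 against 4.86. After group means were removed, ERBB2 had r = 0.987 with DGKA, 0.939 with S1PR4 and 0.961 with MTMR14. The ERBB4 lead probe was not well above background on all 12 arrays and was not searched.

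**Figure D4:**
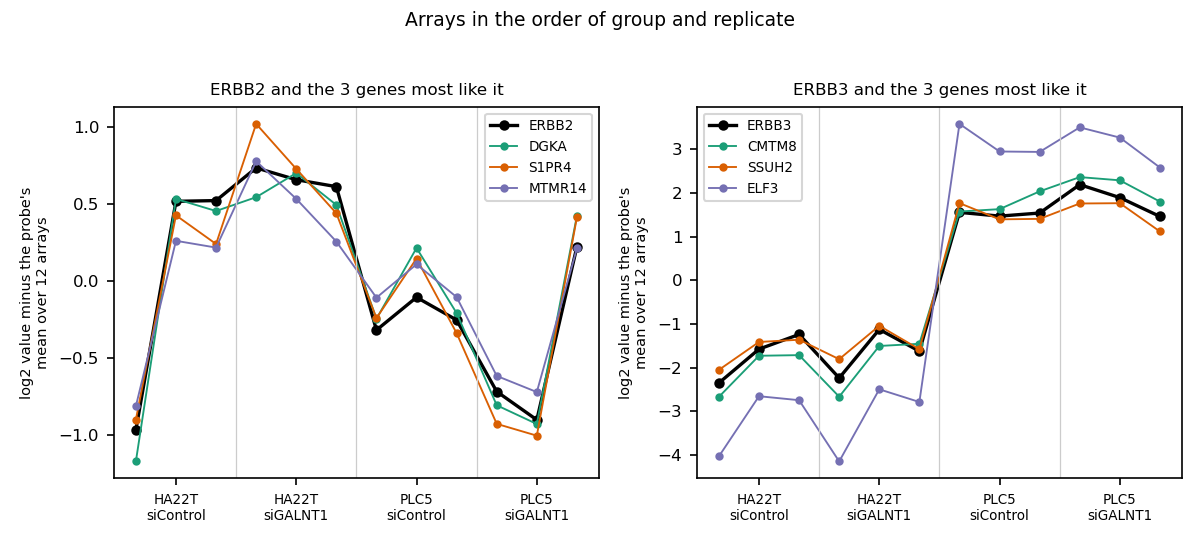
Log2 value minus the mean of the probe over 12 arrays (vertical axis) for ERBB2 and ERBB3 and the 3 genes most like each, with arrays in the order of group and replicate (horizontal axis). ERBB3 and its 3 genes are low on all HA22T arrays, and ERBB2 and its 3 genes share the low replicate 1 of HA22T with siControl. The genes were chosen by correlation over these same arrays.

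Between the receptors themselves, ERBB3 and ERBB4 lead probes had r = 0.851 over the 12 arrays, and those of EGFR and ERBB3 had r = -0.715. All 12 points share lines and slides. Probes of 1 gene did not all run together. The lead probe of EGFR and its NM_005228 probe had r = 0.215, while the 2 NM_001982 probes of ERBB3 had r = 0.98.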

How the data were processed

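RNA of 12 samples was measured on one-color arrays, and per the labels the images were read with Agilent Feature Extraction 10.5.1.1. For each spot the authors deposited intensity values (processed signal, median signal and local background) and flags. The authors also deposited a log2 table per probe, used as an alternative. Log2 of the processed signal minus the 75th percentile of the array over its non-control spots was computed here (Python 3.11.15), without spots marked as non-uniform outliers, and repeated spots were averaged by probe. Of 50599 probes, 28174 were named through RefSeq accessions.

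The 4 groups were fitted together with limma 3.58.1 in R 4.3.3, with Benjamini-Hochberg adjustment over all counted probes and a threshold of 0.05. As a check of the code only, the fit was run on simulated arrays with known changes. Their noise was independent, without slide effects or outlying arrays. A probe was counted in a line if 3 or more of the 6 arrays read it well above background, and between lines if counted in either. Exact permutation tests used arrays as units, and their p-values were not adjusted. Line and slide were partly confounded, so an exact p between the lines is not one of line alone. A fold change on processed signal depends on the background subtracted, most of all for dim probes, and the number of arrays limits the precision.

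The receptors and the gene lists were chosen with earlier results of these data known. The text names every receptor probe, GALNT1, GAPDH and ACTB, any list gene called with siGALNT1, up to 3 genes per list with the smallest adjusted p below 0.05 between the lines with siControl, and the 3 genes most like ERBB2 and ERBB3. The search for EGFR is not reported here. Same-numbered arrays of HA22T deviated together from their group means (r = 0.513, 0.266 and 0.325), which pairs them by the data and not by the labels. PLC5 arrays did not all do so (r = 0.57, 0.012 and 0.179). Alternatives covered background correction, scaling, filters, slide, pairing, the prior, the methods' t-test, the deposited table and leaving out each array.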

Additional observations from a re-analysis of the deposited data

How the results depend on the processing

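For the 4 lead probes, none of 303 alternatives brought an effect of siGALNT1 or its difference between lines past the threshold. Few probes of any gene reached it, with 0 to 3 called in HA22T and 0 to 2 in PLC5 over the alternatives. GALNT1 itself did not pass in the main fit. Some alternatives left out an array of the other line, which leaves the size of an effect within a line unchanged. The count therefore does not show that the receptors were unchanged. ERBB3 kept its call between the lines in all alternatives under both siRNAs, from -3.49 to -2.93 with siControl and from -3.85 to -3.20 with siGALNT1. With the replicate block within each line, no receptor result changed its call (EGFR 0.23 and ERBB2 0.64 in HA22T, with adjusted p = 0.859 and 0.831 by limma). Comparisons of the lines allow no replicate block, since numbers are nested in lines, and the t-test gives no value for the difference between lines. The cause of the changes below was not tested.

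With the mean of a gene's probes, the EGFR effect in HA22T was -0.12, the EGFR line difference with siGALNT1 -0.31, the ERBB3 effect in HA22T -0.39 and the ERBB4 effect in PLC5 -0.0044, and the ERBB4 line calls were lost (-0.94 with siControl and -0.33 with siGALNT1). Under the methods' t-test the ERBB4 calls were lost (-2.49 and -2.13), EGFR was called between the lines with siControl (0.38), and 1 receptor probe in place of 4 was called with siGALNT1. ERBB2 was called between the lines with siGALNT1 under normexp (1.21), a prior with a trend (1.13) and, chosen after seeing the data, a 75th percentile without non-uniform spots (1.36). The EGFR difference between lines in the siRNA effect, -0.03, became 0.0273 with quantile normalization and 0.0848 with that percentile, and the ERBB3 effect in HA22T became -0.0012 with median scaling.

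EGFR A_23_P215790 turned to 0.0487 in HA22T with normexp, and between the lines with siGALNT1 to 0.0276 with quantile normalization, 0.31 with slide as a block and 0.51 on 1 slide. EGFR A_33_P3351944 turned there to 0.28 and 0.25 by slide. ERBB3 A_33_P3211569 turned to 0.0443 in PLC5 with normexp, and EGFR A_23_P215790 minus its lead probe to -0.0707 in PLC5. Single probes of ERBB3 lost calls too. A_23_P349416 lost its call on 1 slide with siControl (-4.08) and under the t-test with siGALNT1 (-4.63), as did A_33_P3211569 under the t-test (-2.33).

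Leaving out single arrays gave these ranges for results that changed. EGFR lead ran from -0.21 to 0.0582 for the difference between lines in the effect. EGFR A_23_P215790 ran from -0.0877 to 0.63 in PLC5 and from -0.60 to 0.12 between the lines with siGALNT1. EGFR A_33_P3351944 ran from -0.19 to 1.37 in PLC5 and from -0.66 to 0.41 between the lines with siControl. ERBB2 ran from 0.91 to 1.47 between the lines with siGALNT1. ERBB3 lead ran from -0.25 to 0.35 in HA22T and from -0.58 to 0.0216 for the difference in effect. ERBB3 A_23_P349416 ran from -0.68 to 0.67 in HA22T, -0.12 to 0.29 in PLC5 and -0.74 to 0.61 for the difference in effect. ERBB3 A_33_P3211569 ran from -0.61 to 0.33 in PLC5. ERBB4 lead ran from -0.0156 to 0.79 in HA22T, -0.55 to 0.32 in PLC5, -0.0446 to 0.94 for the difference in effect and -2.47 to -1.56 between the lines with siGALNT1.

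Over all probes, calls in HA22T were 1, and 0 to 3 over the alternatives. In PLC5 they were 0, and up to 2. Between the lines they were 8939 and 8984, against 3156 and 3191 on the slide with both lines and 3936 by the t-test with siGALNT1.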
